A study of Rattus norvegicus with 10 samples.

Results

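After 12 h on RPE-J cells, nicotine, which opens many nicotinic acetylcholine receptors, was set against PNU-282987 (called PNU here), which is selective for those of the α7 kind. RPE-J is a line of rat retinal pigment epithelium from Long-Evans rats that was transformed with SV40. The labels give PNU at 100 nM and nicotine at 1 µM, so the doses differ as well as the compounds. There was 1 library for each compound at this time, and the other 8 libraries of the series were DMSO vehicle at 12 h, PNU at 30 min, 1 h, 3 h and 8 h, nicotine at 1 h, and a control compound the labels call MLA, at 100 nM for 1 h and 12 h. All were polyadenylated RNA from cells taken off the flask with trypsin. The values are normalised read numbers, called levels here, from the authors' deposited table that pairs these 2 libraries. The table lists 13590 genes, and the 11376 with a mean level of at least 50 over the pair were kept, of 14119 genes in the whole series. At the edge of that threshold, Rbm12b (levels of 65.9 with nicotine and 34.3 with PNU) was kept and Mef2c (58.3 and 41.7) was among the 2214 genes left out. The ratio below is always the log2 of the PNU 12 h level over the nicotine 12 h level, so a negative value means a lower level with PNU. With 1 library a side no difference has a replicate check. The ranges given are exact binomial (Clopper-Pearson) 95% intervals that cover counting error only.

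Nicotinic acetylcholine receptors are pentameric cation channels that open when acetylcholine or nicotine binds. The α7 receptor is built of α7 subunits alone, passes calcium readily and desensitises fast, and calcium entry can feed kinase cascades and early response genes. Retinal pigment epithelium is the pigmented layer behind the photoreceptors, which recycles retinoids, takes up shed outer segments and secretes growth factors.

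The nicotine 12 h library held 25382158 reads in listed genes and the PNU 12 h library 29541230, within the 15220638 to 31510333 of the 10 libraries. The interval of the ratio, which covers counting error only, excluded 0 for 6354 of 11376 genes (55.9%), far more than any size rule below. Counting error was larger in genes of low level, such as Hoxb8 at 35 and 84 reads (0.46 to 1.65). Of 45 possible pairs of libraries in the series, 17 had more genes at least 2-fold apart than this pair. Of 18 markers of pigment epithelium, 7 exceeded the level of 50 in both libraries. Bestrophin 1 (Best1), a chloride channel of that epithelium, stood at 5517 with nicotine and 5635 with PNU, and Pmel, a melanosome protein, at 565 and 588. The visual cycle isomerase Rpe65 and the α7 subunit gene Chrna7 were not analysed here. None of 11 photoreceptor markers and none of 8 endothelial markers reached a level of 50 in both libraries. Of the markers of Muller glia, fibroblasts, neurons and immune cells, a few were abundant and most were low or had no value here. The Muller glia markers Gfap, Kcnj10, Rlbp1 and Slc1a3 stayed under 50, and 4 of 10 fibroblast markers were listed. On the scale of all 10 libraries, 8 Muller glia markers summed to 57324 with nicotine and 60254 with PNU (3 over 50 in both, most of it Vim). On that scale 10 fibroblast markers summed to 34616 and 39499, and 10 neuron markers to 459 and 524 (2 over 50). Of the 3 fibroblast markers over 50, 1 was higher with PNU and 2 were lower. In the pair Col1a1 had 24961 and 33193, a ratio of 0.41. Col3a1 had 12442 and 9614 (-0.37), and Postn had 2660 and 2216 (-0.26). The summed level of 9 immune markers was 223 with nicotine and 269 with PNU on the scale of all 10 libraries; of these, Cd68 is described below and Ptprc was at 143 and 119 in the pair; the part of other cells in any result was not tested.

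Few genes were far apart, and those that were lay mostly on the lower side. At least 2-fold apart were 52 genes (0.457% of 11376), of which 45 were lower with PNU (0.396%) and 7 higher (0.0615%). At least 1.5-fold apart were 532 (4.68%), of which 425 were lower (3.74%) and 107 higher (0.941%). The bulk of genes was balanced, with 5658 above 0 (49.7%), 5707 below 0 (50.2%) and a median ratio of -0.0011. Of the 45 lower genes 31 carry a gene name and 14 are entries under clone, sequence or locus numbers or names that could not be used. Of the 7 higher genes, Rplp2 and Hoxb8 carry a gene name. In the authors' deposited table, 0 of 13590 genes had an adjusted p-value under 0.05 (lowest 0.999999) and 126 had an unadjusted one under 0.05, among them 16 of the 45 and 3 of the 7.

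**Figure D1:**
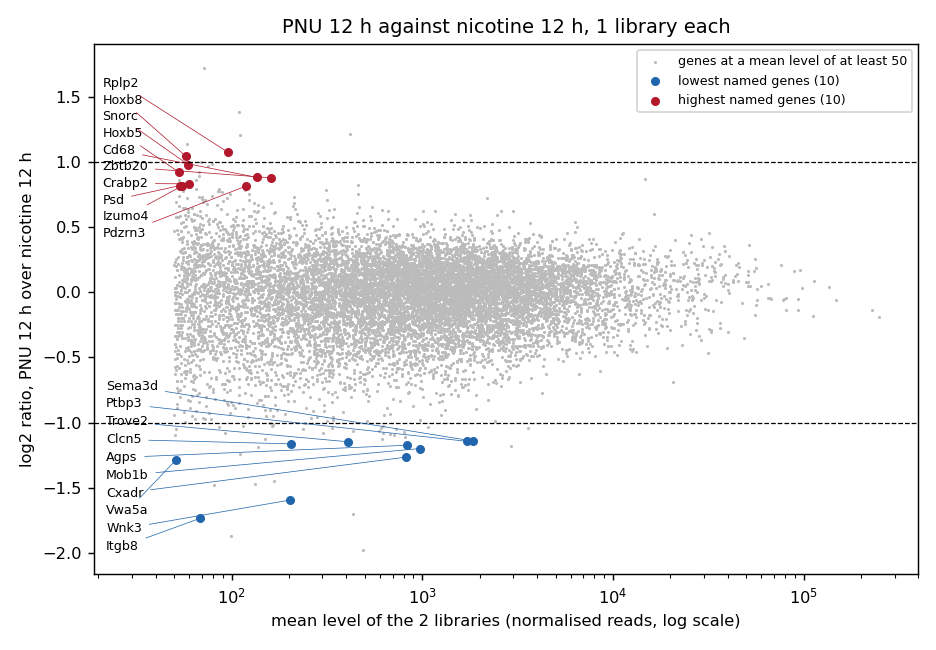
Log2 ratio of PNU 12 h over nicotine 12 h (vertical axis) against the mean level of both libraries in normalised reads (horizontal, log scale), 1 point a gene for 11376 genes. Dashed lines mark 2-fold; the 10 lowest named genes (blue) run from Itgb8 at -1.73 to Sema3d at -1.14 and reach levels above 1000, while the 10 highest named genes (red) run from 0.81 to 1.07, all at mean levels under 200.

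The named genes lower with PNU are given here by their known roles, sorted by hand after their values were seen and with no test of a theme. Of those with roles in adhesion and guidance, Itgb8, the integrin β8 subunit that pairs with αv and activates latent TGF-β, had a level of 105 with nicotine (97 reads) and 31.5 with PNU (34 reads), a ratio of -1.73 (-2.34 to -1.16). Cxadr, the coxsackievirus and adenovirus receptor of epithelial junctions, had 1163 and 484, a ratio of -1.26 (-1.42 to -1.11). Sema3d, a secreted semaphorin that guides axons and migrating cells, had 2540 and 1152, a ratio of -1.14 (-1.24 to -1.04). In each of these genes the nicotine 12 h library was the highest of the 10, and in Itgb8 PNU 12 h was the lowest as well.

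Others encode kinases and signalling proteins. Wnk3, a kinase that controls cation-chloride cotransporters, had levels of 305 with nicotine and 101 with PNU, a ratio of -1.59 (-1.93 to -1.27). Mob1b, the adaptor that activates the LATS kinases of the Hippo pathway, had 1364 and 594, a ratio of -1.20 (-1.34 to -1.06). Prkacb, a catalytic subunit of protein kinase A, had 1093 and 521 (-1.07), and Rictor, the defining subunit of mTORC2, had 838 and 411 (-1.03). The kinase gene Nrk (125 and 59.3) had a ratio of -1.08. Of these 5 genes, Nrk and Wnk3 had the lowest levels in both libraries.

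Further named genes have roles in lipids, ion transport, glycans or vesicle traffic. Agps, which makes the ether bond of plasmalogens in peroxisomes, had levels of 1157 with nicotine and 513 with PNU, a ratio of -1.17 (-1.32 to -1.02). Clcn5, the chloride-proton exchanger of endosomes, had 282 and 126 (-1.16), and Atp7a, a copper-exporting ATPase, had 1109 and 515 (-1.11). Other lower genes of this kind were the lipid transfer protein Vps13a (921 and 434), Osbpl8 (818 and 398), which exchanges lipids between the endoplasmic reticulum and plasma membrane, the cargo receptor Tmed5 (845 and 399), the palmitoyltransferase Zdhhc21 (412 and 194), the glucosyltransferase Alg10 (1439 and 703), which completes the N-glycan precursor, the bicarbonate transporter Slc4a7 (212 and 106) and the heparan sulfate sulfotransferase Hs6st2 (116 and 56.5). Their ratios lay between -1.09 for Vps13a and the 2-fold bound. Atp13a3, a polyamine transporter, stood exactly at the 2-fold bound with 324 and 162, and Birc6, a giant ubiquitin ligase that restrains apoptosis, lay just outside it with 3220 and 1623 (-0.99).

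Some encode RNA-binding proteins. Ptbp3, a splicing repressor of the polypyrimidine tract family, had levels of 2364 with nicotine and 1070 with PNU, a ratio of -1.14 (-1.25 to -1.04). Trove2, the Ro60 protein that binds Y RNAs, had 564 and 255 (-1.15, -1.36 to -0.93). Mbnl1, a splicing regulator, had 986 and 477 (-1.05), and Ythdc2, a helicase that reads m6A in RNA, had 320 and 155 (-1.05). Of the 31 named genes, Vwa5a (72.4 and 29.6, -1.29), Lrrc58 (973 and 456), Spopl (801 and 384), Avl9 (450 and 219) and Fam199x (154 and 75.9) are given by their values only. Mt-nd4 is described with the other mitochondrial genes.

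The higher side was short and sat at low levels. Rplp2, an acidic protein of the ribosomal stalk, had a level of 61.6 with nicotine and 130 with PNU, a ratio of 1.07 (0.62 to 1.54); near-identical copies of ribosomal protein genes can share reads, so its value is uncertain. Hoxb8, a homeobox transcription factor, had 37.8 and 77.8, a ratio of 1.04 (0.46 to 1.65) from 35 and 84 reads. The next 8 named genes were under 2-fold. They were Snorc (40.0 and 78.7, 0.98), the homeobox gene Hoxb5 (36.7 and 69.4, 0.92), the lysosomal protein gene Cd68 (96.1 and 177, 0.88), the transcriptional repressor Zbtb20 (113 and 208, 0.88), Crabp2 (43.2 and 76.8, 0.83), which carries retinoic acid, Psd (0.82), Izumo4 (0.82) and Pdzrn3 (0.81). Neither Hox gene exceeded a level of 80 in either library.

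The position of both libraries among all 10 was read from levels scaled together by the median of ratios. For the 45 genes at least 2-fold lower, nicotine 12 h was the highest of 10 in 30 and PNU 12 h the lowest in 10, where over all 11376 genes they were so in 1782 and 572. DMSO 12 h lay between them in 40 of 45, MLA 12 h in 42 and PNU 8 h in 40, where over all genes they did in 5340, 5451 and 4188. The median over these genes was -0.66 for PNU 12 h over DMSO 12 h and 0.49 for nicotine 12 h over DMSO 12 h. Over all genes these medians were 0.0075 and 0.0025. The genes were chosen for the gap, which by itself raises the counts of nicotine 12 h as highest and PNU 12 h as lowest. The opposite signs of these medians and an intermediate position of the other libraries are likewise in part given by the choice. Which libraries lay beyond the pair was not: nicotine 1 h was the lowest of 10 in 33 of the 45 and in 2641 of all 11376, with a median of -1.12 against the 8 libraries outside the pair, and PNU 3 h had -0.72, next to -0.71 for PNU 12 h. Itgb8 is 1 of the 10 genes in which PNU 12 h was the lowest, at 34 reads, so in it nicotine 1 h lay inside the pair. Its scaled level was 27.6 for PNU 12 h and 90.5 for nicotine 12 h, the ends of the range. Between them came nicotine 1 h (30.0), PNU 3 h (40.7), PNU 8 h (45.7), MLA 1 h (63.0), the DMSO vehicle (69.1), PNU 1 h (69.6), PNU 30 min (71.6) and MLA 12 h (71.7). Mob1b was at 521 for PNU 12 h and 1179 for nicotine 12 h. Below PNU 12 h lay nicotine 1 h (312) and PNU 3 h (500), above nicotine 12 h lay MLA 1 h (1222), and between were PNU 1 h (871), the DMSO vehicle (911), PNU 30 min (1002), MLA 12 h (1029) and PNU 8 h (1037). In both genes PNU 3 h and PNU 12 h lay below DMSO 12 h, while PNU 8 h lay below it in Itgb8 and above it in Mob1b.

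**Figure D2:**
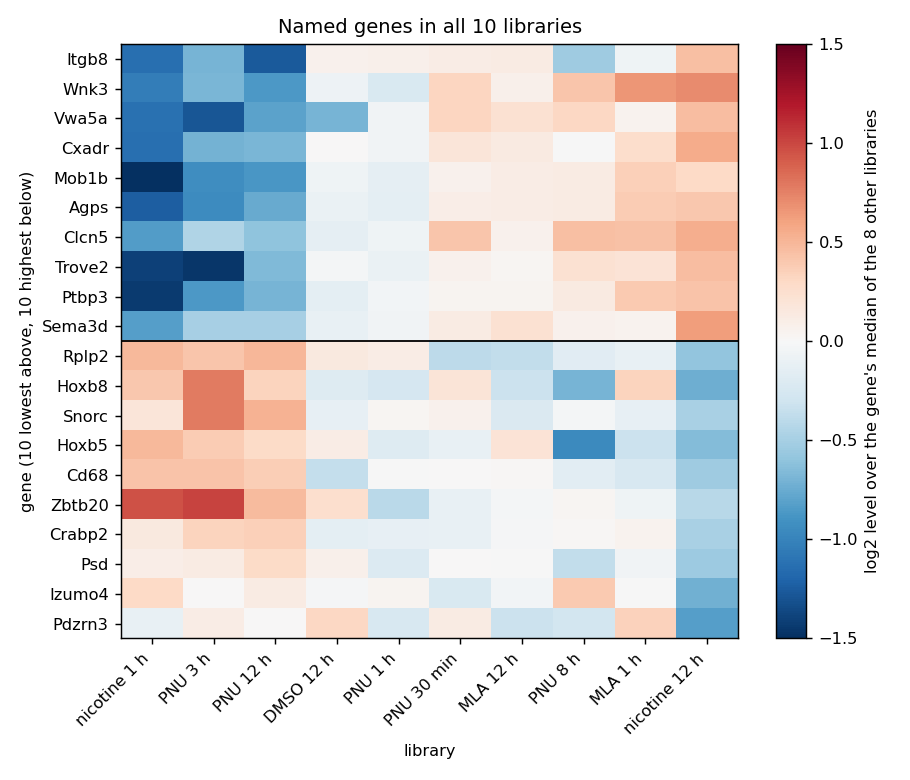
Log2 of the scaled level of each of the 20 named genes (rows) in the 10 libraries (columns), relative to the gene's median over the 8 libraries outside the pair; colour runs from -1.5 (blue) to 1.5 (red). The 10 lower genes, such as Mob1b and Ptbp3, are blue in nicotine 1 h, PNU 3 h and PNU 12 h and red in nicotine 12 h, and most of the 10 higher genes show the reverse.

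The same 2 compounds at 1 h share no library with the 12 h pair, and there the direction was turned over in most of the lower genes, but not in most of the few that were 2-fold higher. Of the 45 genes lower with PNU at 12 h, 42 reached the same mean level, 50, over the 1 h pair, and 39 of these (92.9%) were higher in PNU 1 h than in nicotine 1 h, where 51.0% of all 11310 genes were. Their median log2 ratio of PNU over nicotine at 1 h was 1.08. Of the 1 h pair it was nicotine 1 h that stood away from the other libraries. Over the 45 genes its median against the 8 libraries outside the 12 h pair was -1.12, and that of PNU 1 h was -0.06. At least 2-fold the other way were 25, which is 55.6% of the 45 and 23.4% of the 107 genes at least 2-fold higher at 1 h (0.946% of 11310). Mob1b had 340 in nicotine 1 h and 946 in PNU 1 h, a ratio of 1.48; Vps13a had 244 and 762, a ratio of 1.64. Ptbp3 had 614 and 1609 (1.39), Itgb8 32.7 and 75.7 (1.21), and Cxadr 339 and 712 (1.07). Of the 7 genes at least 2-fold higher at 12 h, 5 were measured at 1 h: 2 were opposite and 3 had the same direction, with a median of 0.06, and 0 were 2-fold apart either way. Zbtb20, under 2-fold higher with PNU at 12 h, had 278 and 108, a ratio of -1.36.

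With the wider rule of 1.5-fold, 370 of 400 measured lower genes (92.5%) were higher in PNU at 1 h, where 51.0% of all genes were, and 79 of 98 measured higher genes (80.6%) were lower, where 49.0% of all were. Of the lower genes 242 were at least 1.5-fold higher at 1 h, as were 5.56% of all, and of the higher genes 20 were at least 1.5-fold lower, as were 3.28% of all. Across 11234 genes at the level at both times, Pearson's r between the 12 h and the 1 h ratio was -0.61 and Spearman's rho -0.62, given as a description, since genes of a library share its depth and preparation. No difference between the times was tested, as each rests on 1 library a side.

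**Figure D3:**
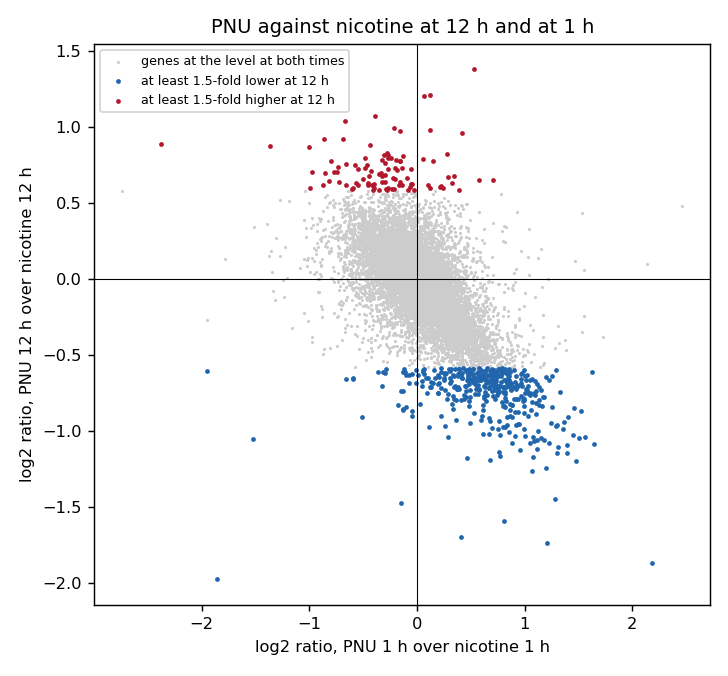
Log2 ratio of PNU over nicotine at 12 h (vertical) against the same at 1 h (horizontal), 1 point a gene for 11234 genes. Of the genes at least 1.5-fold lower at 12 h (blue), 370 of 400 lie right of 0, and of those at least 1.5-fold higher (red), 79 of 98 lie left of it.

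For the measured nicotinic subunits and Hbegf the counting interval of the ratio included 0. In the lists of ERK feedback and of the calcium and cAMP response, 1 of 15 genes each was past 1.5-fold, beside 4.68% of all genes. Chrnb1, the β1 subunit of muscle-type receptors, had levels of 491 with nicotine and 549 with PNU, a ratio of 0.16 (-0.02 to 0.34). Chrna5, an accessory subunit, had 59 and 54 reads (-0.35, -0.91 to 0.21). Chrne, Chrna4 and Chrnb2 stayed under a mean level of 50, at 15.1 to 19.4 in both libraries. Hbegf, an EGF family ligand, had 2280 and 2287, a ratio of 0.00 (-0.08 to 0.09). Egr1, an immediate early transcription factor, had 1661 and 1824 (0.13, 0.04 to 0.23), against 2493 with nicotine and 724 with PNU at 1 h. Of 25 immediate early genes at the level, 22 were higher with PNU and 3 lower, with a median of 0.15, and none passed 1.5-fold; Atf3, a stress-induced repressor, had 269 and 357 (0.41) and Ier2 1289 and 1566 (0.28). Less the median of genes of like length, the list's median was 0.05. Of 15 genes of ERK feedback, 3 were higher and 12 lower (median -0.07). Spred1, an inhibitor of Ras signalling, had 315 and 191 (-0.73), and Dusp6, the ERK phosphatase, 4554 and 3635 (-0.33). Of 15 genes of the calcium and cAMP response, 9 were higher and 6 lower (median 0.04). The intervals of all 6 lower genes lay below 0, as did those of 3371 of all 5707 lower genes, and 2 of the 9 higher genes had an interval above 0. Among the 6 were the cAMP phosphodiesterase Pde4b at 102 and 63.9 (-0.67, -1.14 to -0.20) and the transcription factor Creb1 at 383 and 262 (-0.55).

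Of 9 EGF family genes at the level, 8 were lower with PNU and the median was -0.17. The ligand betacellulin, Btc, had 617 with nicotine and 365 with PNU, a ratio of -0.76 (-0.95 to -0.57). Amphiregulin, Areg, had 540 and 394 (-0.45), the receptor Egfr 877 and 633 (-0.47), and the sheddase Adam10 1830 and 1413 (-0.37). On the scale of all libraries, Btc was lowest in PNU 12 h at 320 and highest in nicotine 12 h at 533, with DMSO 12 h at 477. Of 14 genes of the BMP and ID response, 11 were lower; the median over the 14 of -0.15 was -0.25 with a mean level of at least 200 and -0.26 less genes of like length. Among them were the BMP receptors Bmpr1a at 1942 and 1121 (-0.79) and Bmpr2 at 1064 and 707 (-0.59). Among genes of the TGF-β and YAP response the receptor Tgfbr1 had 1170 and 780 (-0.58), the SMAD repressor Skil 1982 and 1219 (-0.70), and the ligand Tgfb1 2105 and 2929 (0.48). Of 20 genes, 6 were higher and 14 lower, and 1 passed 1.5-fold. The list's median was -0.09, and -0.02 less genes of like length.

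All 8 measured genes of the aryl hydrocarbon receptor (AhR) group were lower with PNU, where 50.2% of all genes were, with a median ratio of -0.22. The interval excluded 0 in 4 of the 8, no larger a share than the 55.9% of all genes. AhR is a ligand-activated transcription factor that pairs with Arnt and turns on enzymes that oxidise foreign compounds. Tiparp, a mono-ADP-ribosyltransferase that restrains AhR, had 1869 with nicotine and 1112 with PNU, a ratio of -0.75 (-0.86 to -0.64). Cyp1b1, a cytochrome P450, had 6646 and 4900 (-0.44), Ahr itself 3567 and 2795 (-0.35) and Arnt 918 and 769 (-0.26). Cyp1a1, the P450 most used as a marker of AhR activity, had 233 and 215, a ratio of -0.12 whose interval of -0.39 to 0.15 includes 0. On the scale of all libraries, Cyp1a1 stood at 188 in PNU 12 h and 202 in nicotine 12 h against 21.6 in DMSO 12 h, so in that gene the pair was close and the vehicle far away. At 1 h, 4 of the 8 were higher with PNU and 4 lower.

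The promoters of these genes are shown since AhR and Arnt act through a response element. In RefSeq's rat assembly GRCr8, the core motif GCGTG was searched on both strands in 250 bases before and 50 after the start of each gene. It was found in 5 of the 6 with a promoter sequence (83.3%) and in 31.1% of all 27457 promoters, a match of letters and not a site. Tiparp (chr2:152063519-152063818, plus strand) holds 1 match and Cyp1b1 (chr6:21094315-21094614, plus strand) 2, in capitals, with CACGC as the motif on the other strand:
Tiparp: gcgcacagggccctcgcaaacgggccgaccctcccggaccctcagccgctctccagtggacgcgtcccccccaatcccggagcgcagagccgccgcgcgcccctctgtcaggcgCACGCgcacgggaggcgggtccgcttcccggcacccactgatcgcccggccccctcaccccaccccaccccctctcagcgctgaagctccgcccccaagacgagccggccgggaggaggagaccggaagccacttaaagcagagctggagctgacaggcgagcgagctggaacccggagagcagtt
Cyp1b1: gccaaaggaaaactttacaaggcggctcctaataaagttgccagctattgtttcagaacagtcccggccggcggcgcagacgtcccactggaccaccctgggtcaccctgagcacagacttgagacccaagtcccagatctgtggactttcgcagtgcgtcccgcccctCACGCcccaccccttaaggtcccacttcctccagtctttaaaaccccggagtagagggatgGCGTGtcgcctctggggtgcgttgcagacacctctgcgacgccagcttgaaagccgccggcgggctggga

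The integrated stress response had a median of 0.21, with 19 of 21 genes higher with PNU and 2 lower, where 49.7% of all genes were higher. The interval lay above 0 in 15 of the 19, where it did in 2983 of all 5658 higher genes. Among the 60 higher cytosolic ribosomal protein genes it did in 55. As background, in this response, eIF2α phosphorylation lets the transcription factor ATF4 be translated, which turns on genes of amino acid supply and, under lasting stress, of cell death. Ddit3, the pro-apoptotic factor CHOP, had levels of 2044 with nicotine and 3142 with PNU, a ratio of 0.62 (0.54 to 0.70). Trib3, a pseudokinase that feeds back on ATF4, had 792 and 1217 (0.62), Chac1, which breaks down glutathione, 594 and 876 (0.56), and Pck2, the mitochondrial PEP carboxykinase, 793 and 1058 (0.42). Atf4 itself had 18759 and 21723 (0.21) and Asns, asparagine synthetase, 1779 and 2056 (0.21). The cystine transporter Slc7a11 went the other way with 663 and 504 (-0.40). Only Ddit3 and Trib3 passed 1.5-fold. On the scale of all libraries, Ddit3 was highest in PNU 12 h at 2757, with the other 9 between 1685 in MLA 12 h and 2000 in nicotine 1 h, and Trib3 was highest there too at 1067, with the others between 684 in nicotine 12 h and 894 in PNU 3 h. Chac1 differed from these, at 768 in PNU 12 h with DMSO 12 h at 816 and PNU 3 h at 976. The list's median was 0.17 less that of genes of like length. By that measure the 16 genes of Wnt signalling stood higher at 0.22 (0.17 before), with 10 higher and 6 lower, such as the ligand Wnt4 at 111 and 154 (0.47).

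The composite element bound by C/EBP and ATF factors reads TGATGNAA, and it was found on either strand in 4 of 20 promoters of the list and in 3.82% of all 27457. The 4 were those of Chac1, Trib3, Slc7a1 and Pck2, so Ddit3, the list member furthest from 0, was not among them. Pck2 was also among the 4 list members furthest from 0 but is not shown. Chac1 (chr3:126795881-126796180, plus strand) and Trib3 (chr3:161275484-161275783, minus strand, printed 5′ to 3′ along the gene) are shown because both were among the 4 list members furthest from 0; capitals mark the match, here on the other strand in each:
Chac1: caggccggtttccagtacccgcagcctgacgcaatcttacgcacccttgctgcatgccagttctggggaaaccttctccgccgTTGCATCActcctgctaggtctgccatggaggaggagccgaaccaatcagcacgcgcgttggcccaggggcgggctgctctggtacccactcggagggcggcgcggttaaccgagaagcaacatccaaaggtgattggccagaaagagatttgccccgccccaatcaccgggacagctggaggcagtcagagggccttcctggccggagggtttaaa
Trib3: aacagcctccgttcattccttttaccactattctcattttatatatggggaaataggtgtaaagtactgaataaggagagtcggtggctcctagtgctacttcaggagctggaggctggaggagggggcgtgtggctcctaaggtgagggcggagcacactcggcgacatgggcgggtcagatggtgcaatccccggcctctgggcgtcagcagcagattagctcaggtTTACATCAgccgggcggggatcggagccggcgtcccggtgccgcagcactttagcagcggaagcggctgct

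Genes of the cell division machinery were mostly lower with PNU. Of 43 genes of G2 and mitosis at the level, 34 were lower and 9 higher, with a median of -0.17 beside -0.0011 for all genes. Ncapg, a condensin subunit, had 2832 with nicotine and 1596 with PNU, a ratio of -0.83 (-0.92 to -0.74). Anln, the actin-binding anillin of the cleavage furrow, had 5132 and 3462 (-0.57), the spindle motor Kif11 6735 and 4808 (-0.49) and the checkpoint protein Mad2l1 4061 and 2923 (-0.47). The mitotic kinase genes Cdk1 and Plk1, picked from the list after their values were seen, differed little. Cdk1 had 8361 and 8042 (-0.06) and Plk1 4547 and 5071 (0.16). Of 38 genes of S phase, 18 were higher and 20 lower (median -0.01), with thymidylate synthase, Tyms, at 2057 and 1293 (-0.67). At 1 h the G2 and mitosis genes had a median of 0.25, with 37 of 43 higher in PNU.

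Short genes for ribosomes and mitochondria were mostly higher with PNU, by small amounts. Of 66 cytosolic ribosomal protein genes 60 were higher (median 0.20), of 70 mitochondrial ribosomal protein genes 61 (median 0.15), of 68 nuclear genes of oxidative phosphorylation 62 (median 0.17) and of 21 genes of snRNP and LSm proteins 19 (median 0.16). Examples are Rps28 with 13045 and 19798 (0.60), the ATP synthase subunit Atp5i with 1332 and 1957 (0.56), Mrpl54 with 2830 and 3635 (0.36) and Lsm4 with 1964 and 2686 (0.45). Less the median of genes of like length, the 4 medians were 0.07, 0.08, 0.08 and 0.10. The mitochondrially encoded genes went the other way, with 11 of 13 lower and a median of -0.14. Mt-nd4, a complex I subunit, had 4827 and 2345, a ratio of -1.04 (-1.11 to -0.97), and Mt-nd4l, which precedes and overlaps it on the same transcript so that reads can be shared, 10335 and 6805 (-0.60). The other 11 lay between -0.29 and 0.22, among them Mt-co1 at 263329 and 230661 (-0.19), and Mt-nd6 at 13284 and 15445 (0.22). Mt-nd4 was lowest of 10 in PNU 12 h at 2057 on the scale of all libraries and highest in nicotine 12 h at 4171.

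Sterol genes, of which Insig1 is the feedback sensor that holds SREBP in the endoplasmic reticulum, were a little higher with PNU. Insig1 had 946 with nicotine and 1320 with PNU, a ratio of 0.48 (0.36 to 0.60). Of 21 cholesterol synthesis genes 15 were higher and 6 lower (median 0.12), led by mevalonate kinase, Mvk, at 458 and 618 (0.43), and less genes of like length the median was 0.03. At 1 h all 21 were higher in PNU than in nicotine, with a median of 0.97, and Insig1 had 855 and 4719. On the scale of all libraries Insig1 was 1158 in PNU 12 h and 818 in nicotine 12 h against 6170 in DMSO 12 h. Of 19 chaperone genes of the endoplasmic reticulum, 13 were higher (median 0.06), with Herpud1, which serves protein degradation there, at 1183 and 1790 (0.60). Of 21 genes of NF-κB and chemokines 13 were lower (median -0.10), with the monocyte attractant Ccl2 at 2079 and 1558 (-0.42) and the neutrophil attractant Cxcl1 at 1217 and 934 (-0.38). Matrix proteases split: Mmp9 had 62.6 and 108 (0.79), Mmp3 65.9 and 112 (0.77) and Adamts1 399 and 262 (-0.61).

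**Figure D4:**
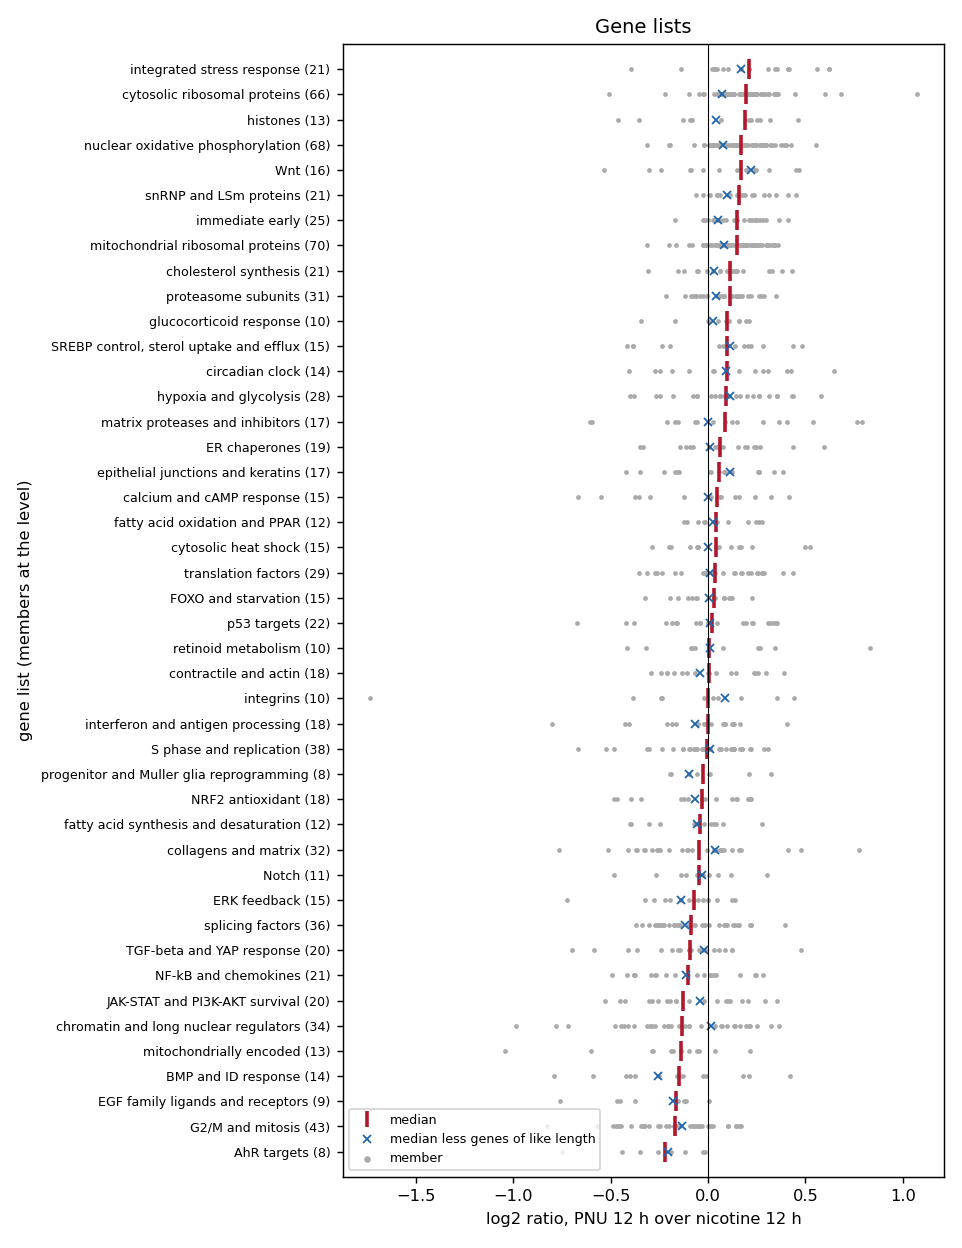
Log2 ratio of PNU 12 h over nicotine 12 h for members of each gene list with at least 5 genes at a mean level of 50 (grey points), with the list's median (red bar) and the median after the ratio of genes of like length was taken off (blue cross). Medians run from -0.22 for the AhR group to 0.21 for the integrated stress response. The list of chromatin regulators and other long genes moves from -0.13 to 0.02 once length is taken off.

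The ratio followed gene length. RefSeq's GRCr8 annotation gave a length from start to end of the gene for 10505 of the 11376 genes (92.3%). The median ratio was 0.14 in the shortest of 10 bins, with genes of 4566 bp or less, and -0.14 in the longest, from 115724 bp. Pearson's r between the ratio and log2 length was -0.35 and Spearman's rho -0.38 over these genes, as a description. The 31 genes at least 2-fold lower that have a length had a median of 86158 bp, beside 24273 bp for all genes. At 1 h the medians ran the other way, from -0.10 in the shortest bin to 0.09 in the longest. Against the 8 libraries outside the pair, the longest bin had a median of -0.12 in PNU 12 h and -0.09 in nicotine 1 h, and 0.02 in nicotine 12 h. A list of chromatin regulators and other long genes, called the chromatin list here, shows it. Of 34 at the level 21 were lower (median -0.13). Among them were the ubiquitin ligase Birc6, Brwd3 at 641 and 372 (-0.78) and Tet2, a DNA demethylase, at 234 and 143 (-0.72). Less genes of like length the list's median was 0.02. By the same measure the AhR group had -0.21 and the G2 and mitosis genes -0.13. A like check of promoter GC content is void, since 77.0% of genes had a promoter sequence, under the 80% set for it.

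**Figure D5:**
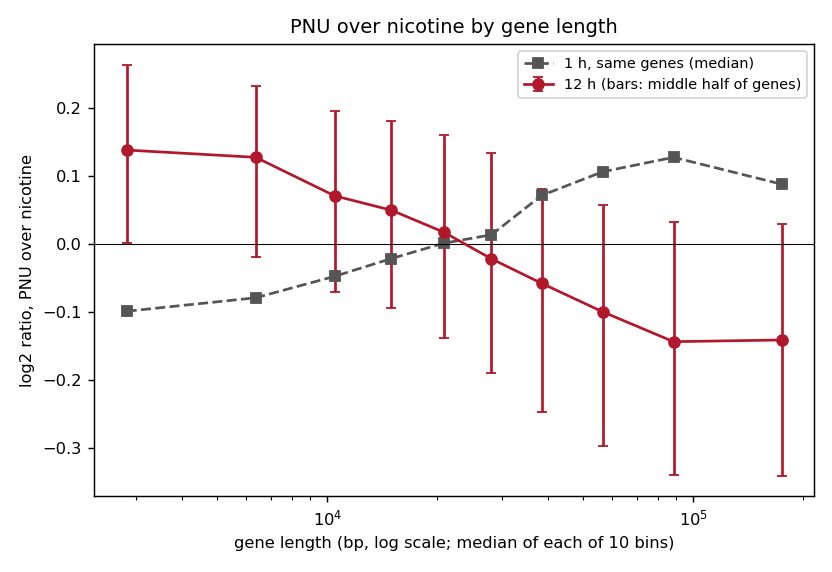
Median log2 ratio of PNU over nicotine in 10 bins of gene length (horizontal, bp, log scale) at 12 h (red; bars span the quartiles) and at 1 h (grey). The 12 h medians go from 0.14 in the shortest bin to -0.14 in the longest, and the 1 h medians from -0.10 to 0.09.

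Genes of chromosome X in GRCr8 were lower with PNU at the median. The 326 at the level had a median ratio of -0.14, and the 10179 of other chromosomes 0.01. Other chromosomes also stood away from 0: chromosome 2 (676 genes) had -0.12 at 12 h, -0.08 less genes of like length and 0.11 at 1 h, chromosomes 18 and 11 both had -0.09, and chromosome 12 had 0.10 at 12 h and -0.12 at 1 h, so a lower median that reverses at 1 h was not seen on X alone. Of the X genes 35 were at least 1.5-fold lower (10.7%, beside 2.92% of the others) and 0 were as much higher. Of the 31 genes at least 2-fold lower with a known chromosome, 9 lie on X (29.0%, beside 3.10% of all), among them Wnk3, Clcn5, Atp7a, Nrk, Hs6st2 and Fam199x. Less the median of genes of like length the X median was -0.13, so it was about as large without the part that length shows. Against the 8 libraries outside the pair the X median was -0.13 in nicotine 1 h, -0.08 in PNU 3 h, -0.04 in PNU 12 h, 0.06 in MLA 1 h and 0.10 in nicotine 12 h. In the 1 h pair the X median was 0.15. What goes with these positions was not tested.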

How the data were processed

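RPE-J cells gave 1 polyA library for each of 10 conditions. Per the submitters' processing notes DESeq2, STAR 2.5.2b, Trimmomatic 0.36 and Subread 1.5.2 with featureCounts were used. The build, annotation and strandedness were not given in the sources used here. For each of 39 pairs of libraries the authors deposited 1 table. Its columns, per the file headers, are both levels, the log2 fold change and the p-value before and after adjustment. The level is a signal that the authors scaled for the pair before it was deposited. The values show whole reads times a step of each column: divided by that step, 100% lay within 0.01 of a whole number. The deposited log2 fold change matched the log2 ratio of levels within 1.99e-05. Column numbers were tied to samples by the file records for 9 libraries, and the remaining number was given to the remaining sample, PNU 12 h.

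Ratios and Clopper-Pearson intervals were computed from the recovered reads with Python 3.11.15, numpy 2.4.6, pandas 2.3.3 and scipy 1.17.1. Reads are not independent molecules, so the intervals cover counting error only. With 1 library a side no count model was run and no p-value was computed. The members and the 46 pathway and 7 marker lists were chosen with earlier results of these data known. Named genes are the 10 highest and 10 lowest ratios with a gene name, the 4 members of a list furthest from 0, Hbegf, Cyp1a1, Insig1, Egr1 and nicotinic receptor subunits; other names, among them the rest of those past 2-fold and further list members, were chosen after their values were seen. Gene lengths, chromosomes and promoters come from RefSeq's GRCr8 tables, matched by symbol. The scaling, the level threshold, a pseudocount, gene length and chromosome X were varied. Some genes that these rules name are not reported here.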

Additional observations from a re-analysis of the deposited data

Results flagged for a closer look

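The difference between PNU and nicotine turned its direction between the times in 39 of the 42 measured genes that were at least 2-fold lower with PNU at 12 h. Among the 10 lowest and 10 highest named genes at 12 h, those at least 2-fold apart the opposite way at 1 h had log2 ratios of PNU 1 h over nicotine 1 h of 1.21 for Itgb8, 1.06 for Vwa5a, 1.07 for Cxadr, 1.48 for Mob1b, 1.08 for Agps, 1.30 for Trove2 and 1.39 for Ptbp3, and of -1.36 for Zbtb20, which was higher with PNU at 12 h. Each ratio describes 1 library against 1, and the difference between the times was not tested. Other named genes past 2-fold at 12 h reached such ratios at 1 h too, among them Vps13a at 1.64, Avl9 at 1.56 and Ythdc2 at 1.51.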

How the results depend on the processing

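With a mean level of at least 10, 250 genes were at least 2-fold apart (114 higher with PNU, 136 lower) and 1205 at least 1.5-fold (454 higher, 751 lower), so the higher side rose from 13.5% to 45.6% of the 2-fold calls and from 20.1% to 37.7% of the 1.5-fold calls, as more genes of low level entered. With a level of at least 200 there were 29 (1 higher, 28 lower; 3.45% higher) and 283 (30 higher, 253 lower), and 245 of the lower genes were higher in PNU at 1 h. A pseudocount of 10 left 4 genes higher at least 2-fold. Less the median of genes of like length, an alternative chosen after seeing the data and open to the 10505 genes with a length, 15 genes were at least 2-fold apart (1 higher, 14 lower) and 315 at least 1.5-fold (68 higher, 247 lower), and the median of the chromatin list turned from -0.13 to 0.017. Scaling by TMM, by total reads or by the median of ratios over all libraries, and leaving out chromosome X (added after seeing the data), held every count of genes within 1.5 times its value. No paired analysis was possible because each condition has 1 library and the labels carry no replicate numbers; for the same reason no replicate could be left out.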
